A study of Mus musculus with 3 samples.

Results

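The cluster of miR-191 and miR-425 is a pair of neighbouring microRNA (miRNA) hairpins whose 4 mature arms, mmu-miR-191-5p, mmu-miR-191-3p, mmu-miR-425-5p and mmu-miR-425-3p, were all listed among the 1915 mature mouse miRNAs counted in each library. Members were taken by name alone, and all 4 had counts in every library; of the 749 hairpins with both arms listed, 2 are theirs. The libraries came from exosomes, small vesicles that cells release, collected from the medium of bone-marrow-derived macrophages of wild type C57BL/6 mice. Marrow cells were grown for 24 h with M-CSF, the cytokine under which macrophages form, and were then kept in medium whose serum had been cleared of exosomes, from which vesicles were pelleted after 72 h. There was 1 group of 3 libraries, and no treated cells or parent cells were analysed here, so the comparisons here are between arms, between the hairpins and between libraries. Whether each library had its own culture or animal is not stated, so p-values speak only for differences among these 3 preparations, and those may be technical. The mice were adults. Markers of the parent cells can speak only for the RNA in the vesicle pellet.

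A miRNA hairpin is cut out of a longer transcript by Drosha and then by Dicer, which leaves a duplex of a 5p and a 3p arm. One arm is usually kept by an Argonaute protein as the guide that finds target mRNAs through its seed, bases 2 to 8, and the other, the passenger, is mostly degraded. MiR-191-5p is among the abundant miRNAs of many tissues and blood cells, is often used as a reference in PCR assays, and falls during terminal maturation of mouse red blood cells, where it represses Riok3 and Mxi1. In human cells miR-425-5p is induced through NF-κB and represses the natriuretic peptide gene NPPA.

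Because the results turn on which arm and which hairpin was counted, the sequences are shown first, from RefSeq on GRCm38.p6 (the assembly also called mm10), all on the plus strand of chromosome 9. The mature arms follow 5′ to 3′, with the seed in capitals.
mmu-miR-191-5p: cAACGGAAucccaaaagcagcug
mmu-miR-191-3p: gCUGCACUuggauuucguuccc
mmu-miR-425-5p: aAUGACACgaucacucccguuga
mmu-miR-425-3p: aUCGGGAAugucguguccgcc

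The hairpins themselves are shown with both mature arms in capitals, the 5p arm first, to set the arms in their stem and loop.
Mir191: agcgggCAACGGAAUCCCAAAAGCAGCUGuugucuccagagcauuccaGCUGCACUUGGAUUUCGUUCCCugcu
Mir425: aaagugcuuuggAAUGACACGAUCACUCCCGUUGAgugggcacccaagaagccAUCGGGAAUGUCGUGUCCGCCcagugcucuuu

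Mir191 spans chr9:108568319-108568392 and Mir425 spans chr9:108568777-108568861, with 384 bases between them. Each of the 4 mature sequences belonged to a single hairpin in the RefSeq table, so their counts need not be divided between gene copies. The cluster is known as a passenger of Dalrd3, a protein-coding gene, and the annotations differ on this. The RefSeq Dalrd3 gene runs from 108567484 to 108572773 and contains both hairpins, whereas in GENCODE M21 Dalrd3 starts at 108569886, which is 1024 bases past the end of Mir425. In GENCODE M21 both hairpins lie instead wholly within the exon, from 108567533 to 108569174, of a transcript of the lincRNA 4833445I07Rik. An antisense miRNA gene, Gm24083, is annotated across Mir191 on the minus strand, and the use of strand in the counting was not given in the sources.

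The 4 arms have 4 different seeds. In the RefSeq table, which held a sequence for 1623 of the 1915 listed names, no other mouse miRNA with an entry shared a seed with miR-191-5p, miR-191-3p or miR-425-3p. The seed of miR-425-5p was shared with miR-489-3p, which had 0 counts in all 3 libraries. A count of 0 allows a level of up to 0.997 counts per 1000000 miRNA counts (CPM) in library 1, 1.20 CPM in library 2 and 0.935 CPM in library 3, the level of 3 counts.

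The libraries held between 2489984 and 3208617 miRNA counts, and members are given in CPM of these totals. Intervals and floors cover counting error only, since PCR reads without molecular identifiers are not independent molecules. Library 1 stood apart from the other libraries: the median log2 ratio over the 134 miRNAs whose mean reached 100 CPM was 0.62 for library 1 over library 2, 0.96 for library 1 over library 3 and 0.16 for library 2 over library 3. TMM factors, which scale libraries on the bulk of their miRNAs, shifted all log2 ratios by -0.61, -0.86 and -0.25 in these 3 comparisons, so directions between libraries are given on both scales. The 7 macrophage and myeloid markers were present in every library and together took 7.62%, 35.0% and 30.4% of counts in libraries 1, 2 and 3. The most abundant of them in every library was miR-21a-5p, at 37316 CPM in library 1, 305278 CPM in library 2 and 261488 CPM in library 3. On library totals the other 6 did not share 1 pattern. There miR-142a-3p, miR-142a-5p and miR-155-5p were lowest in library 1, and miR-223-3p and miR-22-3p were lowest in library 3. MiR-146a-5p was nearly even at 33401, 35012 and 36543 CPM. TMM factors lower library 1 against the other libraries, so the markers lowest there on library totals stay lowest there. With these factors miR-223-3p, miR-22-3p and miR-146a-5p were lowest in library 1 as well, so their orders above hold for library totals only. Of other cell types, the 4 stromal markers together took 0.0135% to 0.0247%, the 4 epithelial markers 0.00665% to 0.0437%, the hepatocyte miR-122-5p 0.0322% to 0.150% and the endothelial miR-126a-3p 0.00216% to 0.00438%. The lymphoid miR-150-5p had 0, 0 and 1 counts. Of the markers tested, all 7 myeloid, 2 of 2 erythroid, 1 of 2 stromal, 3 of 3 epithelial, the hepatocyte and the endothelial one varied between libraries beyond counting error in the chi-square test described below, which called 90.1% of all 353 miRNAs tested.

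The cluster as a whole took 0.845%, 0.720% and 0.320% of miRNA counts in libraries 1, 2 and 3, a mean of 0.628% ± 0.274 (SD, n = 3). Nearly all of this was miR-191-5p, with 96.2%, 95.7% and 90.6% of the cluster's counts in libraries 1, 2 and 3. MiR-425-5p made up 2.16%, 3.78% and 8.45% of them.

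MiR-191-5p was the more abundant arm of its hairpin. It was at 8124 CPM in library 1 (Wilson 95% interval 8024 to 8226) and 6887 CPM in library 2 (6785 to 6991). In library 3 it was at 2897 CPM (2838 to 2956). Libraries 1 and 2 were high and library 3 was low, and the 3 intervals did not overlap. Its mean of 5969 ± 2732 CPM (SD, n = 3) placed it 27th of 886 miRNAs with a count. It ranked 21st in libraries 1 and 2 and 38th in library 3. The 2 miRNAs above it by the mean, miR-183-5p at 8086 ± 2637 CPM and miR-151-3p at 6853 ± 2937 CPM, and the 2 below, miR-532-5p at 5746 ± 4293 CPM and miR-222-3p at 5450 ± 555 CPM (SD, n = 3 each), lay within its own spread.

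MiR-425-5p, the more abundant arm of the second hairpin, was at 182 CPM in library 1 (Wilson 95% interval 168 to 198), 272 CPM in library 2 (253 to 294) and 270.2 CPM in library 3 (253 to 289). On library totals it was low in library 1 and nearly equal in the other libraries. Its mean was 242 ± 51.3 CPM (SD, n = 3), 106th of 886. The neighbours in that order, miR-1981-5p at 246 ± 152 CPM, miR-872-5p at 245 ± 148 CPM, miR-345-3p at 238 ± 245 CPM and miR-1843a-5p at 214 ± 8.49 CPM (SD, n = 3 each), differed from it by less than its spread.

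The 3p arms were lower and were both highest in library 1. MiR-425-3p reached 106 CPM in library 1, 25.7 CPM in library 2 and 20.3 CPM in library 3, from 319, 64 and 65 counts, a mean of 50.7 ± 48.0 CPM (SD, n = 3) and 161st place. The value in library 1 lay far above the other values, and without library 1 the mean was 23.0 CPM. MiR-191-3p reached 33.6 CPM in library 1, 12.4 CPM in library 2 and 9.04 CPM in library 3, from 101, 31 and 29 counts, a mean of 18.4 ± 13.3 CPM (SD, n = 3) and 218th place. Without library 1 its mean was 10.7 CPM.

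**Figure D1:**
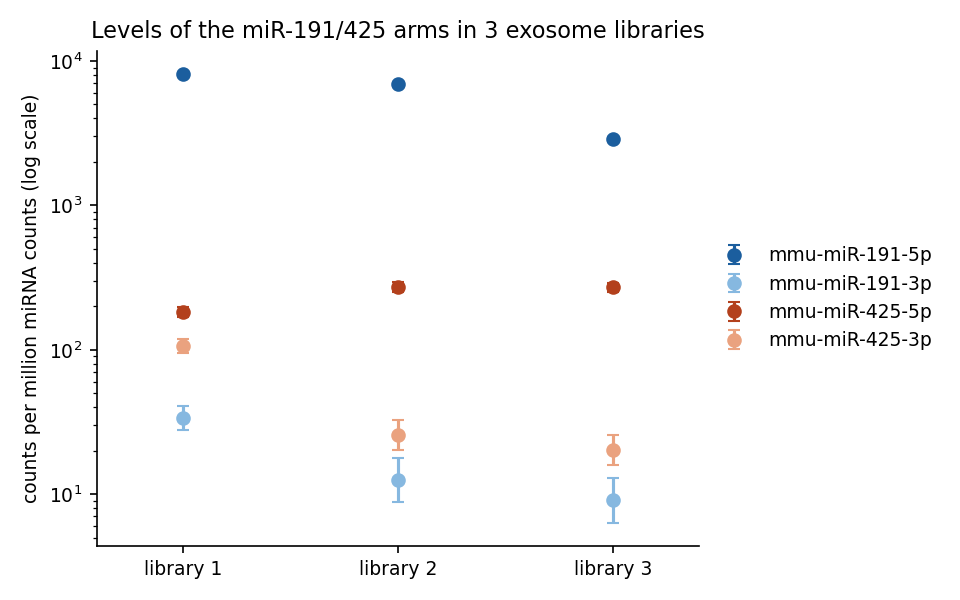
Level of each arm in each library as counts per 1000000 miRNA counts on a log axis; points are single libraries and bars are Wilson 95% intervals of counting error. miR-191-5p is lowest in library 3 at 2897 CPM, miR-425-5p is lowest in library 1 at 182 CPM, and both 3p arms are highest in library 1.

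A chi-square test with Benjamini-Hochberg adjustment called all 4 arms different between libraries, and 90.1% of the 353 miRNAs tested were called, so that count is nothing particular to the cluster. The chi-square statistic was 7910 for miR-191-5p, and the adjusted p was 1.91e-14 for miR-425-5p, 3.16e-58 for miR-425-3p and 6.11e-13 for miR-191-3p. Without library 1, miR-191-5p still differed on library totals. MiR-425-5p, miR-425-3p and miR-191-3p did not pass there, with an adjusted p of 0.897, 0.233 and 0.273 from the same chi-square test. The chi-square test was not run with other scalings without library 1. The test compares these libraries, not conditions.

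Between libraries 2 and 3, where the median log2 ratio was nearest to 0, miR-191-5p was 2.38-fold higher in library 2 than in library 3 (exact 95% interval 2.32 to 2.44), while miR-425-5p stood at a ratio of 1.01 (0.910 to 1.12). With TMM factors the log2 ratio of miR-191-5p in this comparison was 1.00 and that of miR-425-5p -0.24. The exact interval of miR-425-5p then excluded equal levels, as it did with DESeq2 size factors at -0.22, so its near equality holds for library totals only. For library 1 over library 2, miR-191-5p was 1.18-fold higher (1.16 to 1.20), a direction that turned with the scaling: the log2 ratio was 0.24 on library totals, -0.38 with TMM factors and -0.41 with DESeq2 size factors. The ratio of miR-425-5p in library 1 to library 2 was 0.670 (0.598 to 0.751), and its log2 value stayed negative, at -0.58 on library totals and -1.19 with TMM factors. In contrast, miR-425-3p was 4.12-fold (3.14 to 5.48) and miR-191-3p 2.70-fold (1.79 to 4.17) higher in library 1 than in library 2, and with TMM factors their log2 ratios remained positive, at 1.43 and 0.82.

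The 3 erythroid markers, of which miR-451a and miR-486a-5p had counts in every library, were also highest in library 1: their summed share was 0.00897%, 0.00277% and 0.00156% in libraries 1, 2 and 3. MiR-451a reached 33.9 CPM in library 1, 17.3 CPM in library 2 and 11.2 CPM in library 3, and miR-144-3p had 5, 2 and 0 counts. On library totals the summed share of the stromal markers had the same order, at 0.0247%, 0.0141% and 0.0135%. Most of that sum was miR-199a-3p, at 223, 125 and 114 CPM. MiR-143-3p was lowest in library 2, at 20.9, 14.1 and 19.6 CPM. MiR-214-3p had 7, 4 and 2 counts, and miR-145a-5p had 1, 0 and 1. The epithelial sum, miR-122-5p and miR-126a-3p were instead lowest in library 1 on that scale. The epithelial sum took 0.00665%, 0.0437% and 0.0266% in libraries 1, 2 and 3. Within it miR-200b-3p and miR-200c-3p were lowest in library 1. MiR-205-5p, at 17.6, 87.6 and 3.74 CPM, and miR-141-3p, with 7, 9 and 5 counts, were lowest in library 3. The hepatocyte miR-122-5p took 0.0322%, 0.0548% and 0.150%, and the endothelial miR-126a-3p 0.00216%, 0.00438% and 0.00237%. On library totals the order of the erythroid and stromal sums is also that of miR-191-5p. The median log2 ratios over the 134 miRNAs whose mean reached 100 CPM ran the same way, so this order is not particular to them. Those medians were 0.62 for library 1 over library 2, 0.96 for library 1 over library 3 and 0.16 for library 2 over library 3. With TMM factors miR-191-5p was instead highest in library 2, at 5775, 7495 and 3744 CPM in libraries 1, 2 and 3, and so it was with DESeq2 size factors, at 5703, 7597 and 3741 CPM. The part of these markers in its values was not tested.

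Both hairpins gave more 5p than 3p counts in every library, but by very different margins. In miR-191 the 5p arm outnumbered the 3p arm 242-fold in library 1 (exact 95% interval 199 to 297), 553-fold in library 2 (390 to 814) and 320.5-fold in library 3 (223 to 479). In miR-425 it did so only 1.72-fold in library 1 (1.496 to 1.98), 10.6-fold in library 2 (8.19 to 13.9) and 13.3-fold in library 3 (10.4 to 17.4). The intervals of the hairpins did not overlap in any library.

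edgeR's quasi-likelihood test, with the library as a block, gave a log2 ratio of 5p over 3p of 8.44 for miR-191 (Benjamini-Hochberg adjusted p = 2.71e-13) and of 2.69 for miR-425 (adjusted p = 0.0106). Of the 157 hairpins tested, 65 (41.4%) were called with a higher 5p arm and 61 with a higher 3p arm, and the median log2 ratio was 0.17. By that ratio miR-191 stood 31st and miR-425 62nd from the 5p end. The call for miR-425 was lost without library 2 or library 3, with an edgeR adjusted p of 0.243 or 0.197, although the 5p arm had more counts in all 3 libraries, and without library 1 it was 1.81e-07.

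The split between the arms of miR-425 set library 1 apart. MiR-425-3p made up 36.8% of the hairpin's counts in library 1 (Wilson 95% interval 33.6 to 40.0), 8.63% in library 2 (6.81 to 10.9) and 6.97% in library 3 (5.51 to 8.79). The interval of library 1 lay above the other intervals, and those of libraries 2 and 3 overlapped. For miR-191 the 3p share was 0.411% (0.339 to 0.4997), 0.180% (0.127 to 0.256) and 0.311% (0.217 to 0.446) in libraries 1, 2 and 3, so the guide took over 99% throughout. An arm share is a ratio within a library and does not depend on scaling between libraries.

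**Figure D2:**
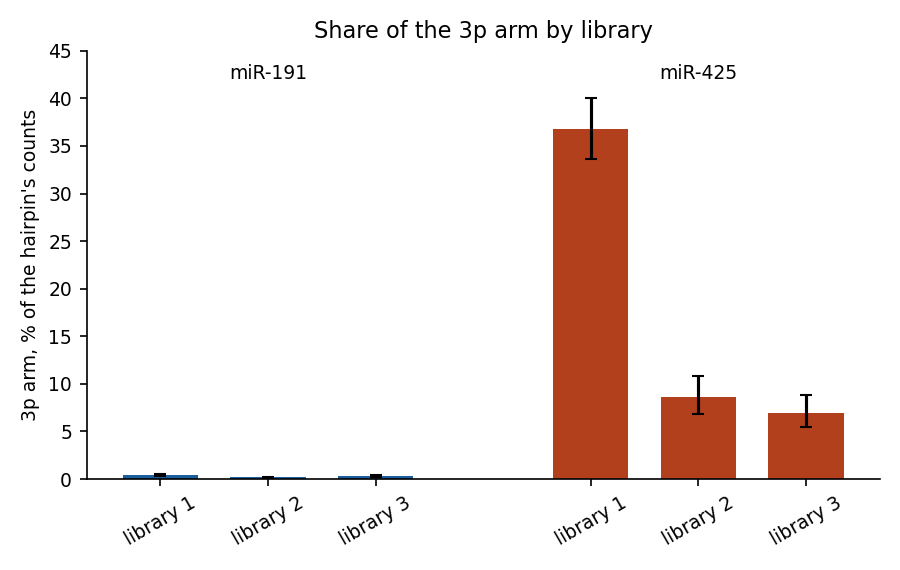
Share of the 3p arm in all counts of the hairpin, in percent, for miR-191 and miR-425 in each library; bars are single libraries and error bars are Wilson 95% intervals. The miR-425 share is 36.8% in library 1 against 8.63% and 6.97% in libraries 2 and 3, while that of miR-191 is under 1% in each.

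In a chi-square test of the arm counts by library, the arm split differed between libraries for miR-425 (adjusted p = 2.74e-72) and for miR-191 (adjusted p = 0.000271), as it did for 93.8% of the 81 hairpins tested. In size the cluster's hairpins lay far apart. The 5p share of miR-425 ranged over 29.8 percentage points, which placed it 20th of 81, and that of miR-191 over 0.231 points, which placed it 73rd, against a median of 13.8 points. Without library 1 the split of miR-425 no longer passed (adjusted p = 0.281), and that of miR-191 was lost without library 1 (adjusted p = 0.0610) or library 2 (adjusted p = 0.213) in the same chi-square test. The minor arm of a hairpin was taken as the arm with fewer counts over the 3 libraries together. It can therefore lead in a single library, as that of let-7d did in library 1 at 89.0%. Among the 76 hairpins called, the minor arm took its highest share in library 1 in 35, in library 2 in 21 and in library 3 in 20. The median share of the minor arm over the 81 hairpins was 5.25%, 10.3% and 8.01% in libraries 1, 2 and 3, lowest in library 1. Pooled over the counts of the 81 hairpins it was 1.87%, 0.947% and 1.04%, highest in library 1, so the summary of all hairpins turned with how they were weighted.

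Base composition also moved with library 1. MiR-425-3p is 61.9% G and C, against 47.8% for miR-425-5p, 54.5% for miR-191-3p and 52.2% for miR-191-5p. Over the 119 of the 134 abundant miRNAs with a RefSeq sequence, the 44 with at least 50% G and C had a median log2 ratio of library 1 over library 2 of 1.22, and the other 75 a median of -0.01. Across these miRNAs, which share the libraries and are not independent replicates, the Pearson r of G and C content with that ratio was 0.58 and the Spearman rho 0.56. The values for library 2 over library 3 were -0.06 and -0.04. Of 66 hairpins in the arm-share test with arms of unequal G and C content, the richer arm took its highest share in library 1 in 35, as in miR-425, its lowest there in 25, and lay between in 6. The miR-191 arms differ less in composition. The richer of them, miR-191-3p, also had its highest share in library 1, but the interval of that share overlapped the interval of library 3. The part of base composition in the miR-425 arm split itself was not tested.

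Although both hairpins lie 384 bases apart on the same strand, the ratio of their products was not constant. MiR-191-5p outnumbered miR-425-5p 44.5-fold in library 1 (exact 95% interval 40.9 to 48.5), 25.3-fold in library 2 (23.4 to 27.4) and 10.7-fold in library 3 (10.0 to 11.5), a mean ratio of 26.8 ± 17.0 (SD, n = 3). The 3 intervals did not overlap, and the highest ratio was 4.15 times the lowest. Counting both arms of each hairpin, the ratio of miR-191 to miR-425 was 28.3 (26.4 to 30.3), 23.2 (21.5 to 25.0) and 10.0 (9.35 to 10.7) in libraries 1, 2 and 3. With both arms counted, libraries 1 and 2 came close and library 3 was the one apart, and the highest ratio was 2.83 times the lowest.

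**Figure D3:**
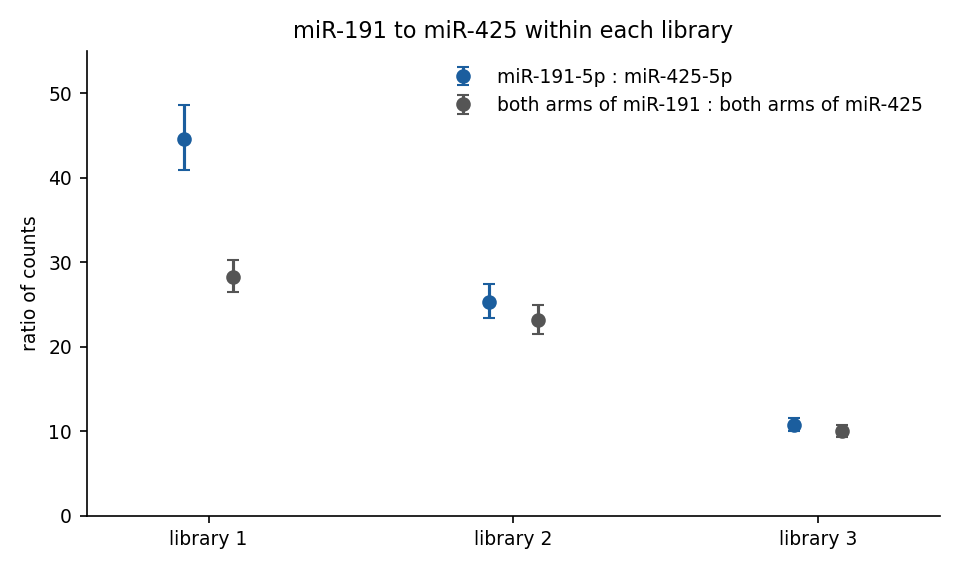
Ratio of counts of miR-191-5p to miR-425-5p, and of both arms of miR-191 to both arms of miR-425, within each library; points are single libraries and bars are exact 95% intervals. The 5p ratio is 44.5, 25.3 and 10.7 in libraries 1, 2 and 3, and the hairpin ratio 28.3, 23.2 and 10.0.

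The 3p arms kept closer together than the 5p arms. MiR-425-3p outnumbered miR-191-3p 3.16-fold in library 1 (exact 95% interval 2.52 to 3.99), 2.06-fold in library 2 (1.32 to 3.28) and 2.24-fold in library 3 (1.43 to 3.60), with overlapping intervals. MiR-425 gave the more abundant 3p arm and miR-191 the more abundant 5p arm in every library.

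The split of counts between the hairpins was set against other neighbours on the same strand within 10 kb whose mature sequences come from a single hairpin. The miR-191 and miR-425 split differed between libraries (chi-square test, adjusted p = 5.10e-118), as did 87.5% of the 24 such pairs tested. Leaving out any one library kept this call for the cluster. In size its log2 ratio ranged over 1.499 across libraries, 12th of the 24 pairs and next to the median of 1.494. Some hairpins stand in 2 pairs. The widest ranges were those of Mirlet7e and Mir125a at 6.44, Mir188 and Mir532 at 3.53 and Mir96 and Mir183 at 3.49. The narrowest were those of Mir503 and Mir322 at 0.47, Mir497 and Mir195a at 0.61 and Mir182 and Mir96 at 0.82.

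Other hairpins known to be made with a partner inside a protein-coding gene also changed in ratio. In the Mcm7 gene, Mir25 outnumbered Mir93 6.60-fold, 3.79-fold and 7.96-fold in libraries 1, 2 and 3, a log2 range of 1.07. In the same gene the ratio of Mir93 to Mir106b was 3.77, 1.80 and 0.506, a log2 range of 2.90. Mir23b and Mir27b, hosted by Aopep, had a log2 range of 1.90. Hairpins whose mature arm is also encoded elsewhere or lacks a matching arm name, such as those of miR-16 and miR-24, were left out of these pairs.

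**Figure D4:**
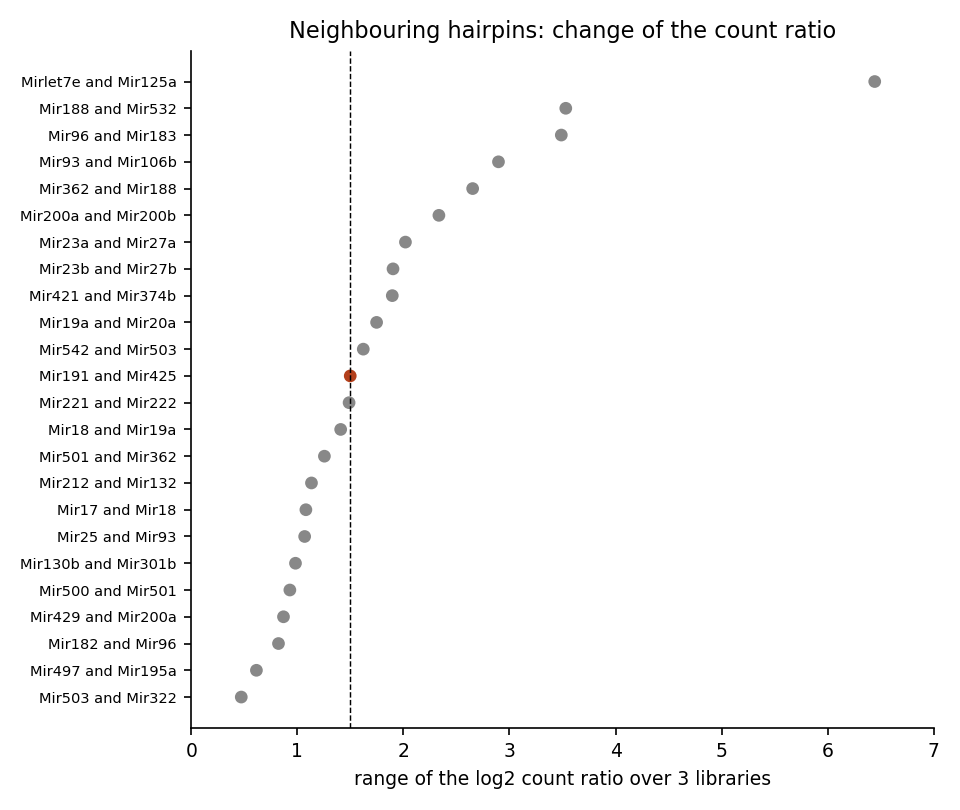
Range over the 3 libraries of the log2 count ratio of 24 pairs of neighbouring hairpins, widest at the top; each point is a pair, the dashed line is the median, and Mir191 with Mir425 is in red. The cluster lies at 1.499, next to the median of 1.494.

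Since miR-191-5p and miR-425-5p are both used to normalise PCR data, their steadiness was compared with 18 other miRNAs used for this purpose. All 20 had counts in every library and all 20 differed between the libraries in the chi-square test, against the 90.1% called among all miRNAs tested. MiR-425-5p had a coefficient of variation (CV) of 21.2% between libraries, second lowest of the 20, and miR-191-5p one of 45.8%, the 7th lowest, against a list median of 76.7%. The lowest was miR-186-5p at 12.9%, followed after miR-425-5p by miR-16-5p at 22.0%, and the highest were miR-328-3p at 129% and miR-484 at 146%. With TMM factors the order of the members turned: the CV was 33.1% for miR-191-5p, in place 2, and 44.3% for miR-425-5p, in place 4, and the list median 58.7%. Among all 134 miRNAs whose mean reached 100 CPM, miR-425-5p was the 10th and miR-191-5p the 48th steadiest, against a median CV of 59.6%. With TMM factors they were 51st and 37th.

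**Figure D5:**
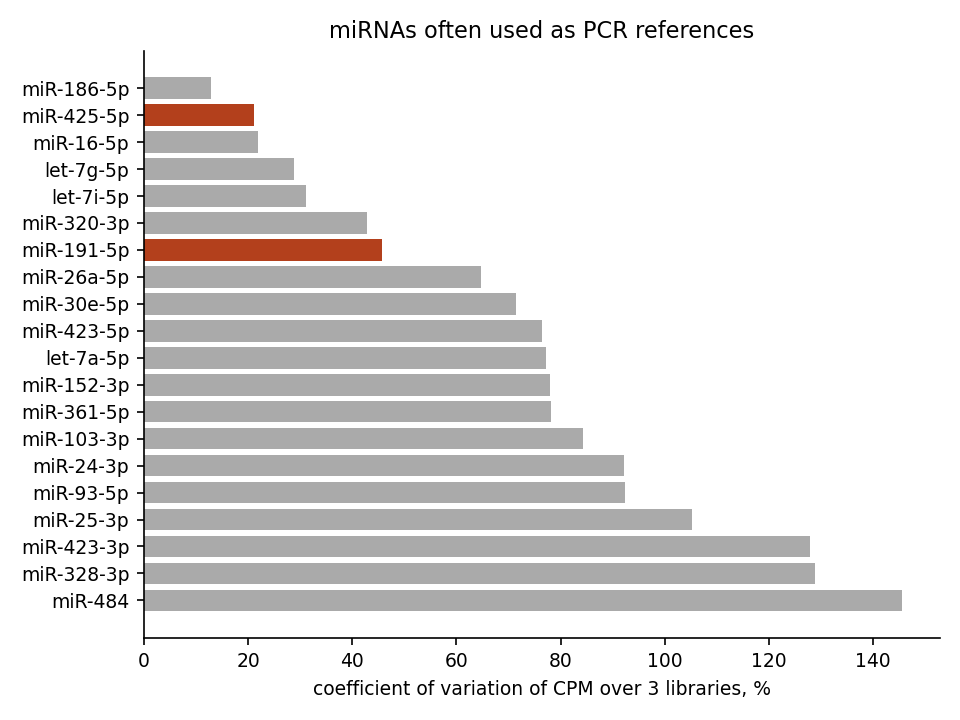
Coefficient of variation of CPM over the 3 libraries, in percent, for 20 miRNAs often used as PCR references, steadiest at the top and members of the cluster in red. miR-425-5p is at 21.2% and miR-191-5p at 45.8%; with TMM factors their order is turned.

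Likeness over the 3 libraries was measured by the distance between log2(CPM + 1) values after taking off each miRNA's mean. The miRNAs most like each 5p arm were found among the same 134. For miR-191-5p they were miR-125b-5p (2093, 1818 and 805 CPM in libraries 1, 2 and 3, at a distance of 0.079), miR-125a-5p, miR-542-3p, miR-340-5p and miR-221-3p, the last at a distance of 0.31. All 5 were lowest in library 3. For miR-425-5p they were let-7b-5p (2530, 3493 and 3469 CPM, at a distance of 0.089), miR-374b-5p, let-7g-5p, miR-186-5p and miR-221-5p, the last at 0.25. All 5 were lowest in library 1. The partner from the same cluster was not among them: miR-425-5p came 69th in likeness to miR-191-5p, and miR-191-5p 67th in likeness to miR-425-5p, at a distance of 1.46. With 3 libraries these distances describe the profiles and carry no test.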

How the data were processed

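Small RNA from exosomes of mouse bone-marrow-derived macrophages was sequenced in 3 libraries as single-end reads of 50 bases, per the labels' protocols. Bcl2fastq, BWA and mm10 are named in the submitters' processing notes, and the sources used here do not give the trimming, the mismatch limit, the miRNA release or how multiply matching reads were handled. A count in whole numbers for each mature miRNA was deposited by the authors and is the unit of all tests. They also deposited a normalized value, RPM, and dividing the columns gives its denominator as 14047692 in library 1, 13995845 in library 2 and 14002577 in library 3, of which miRNA counts make up 21.4%, 17.8% and 22.9%. Adapter ligation and PCR are known to favour some sequences over others.

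CPM was the count per 1000000 miRNA counts. Differences between libraries were tested by chi-square against library totals where the 3 counts summed to at least 30, arm and pair splits by chi-square of tables with a smallest expected count of 5 (SciPy 1.17.1), and arms by edgeR 4.0.16 (quasi-likelihood, summed count at least 60, library as a block), each with Benjamini-Hochberg adjustment over all features tested and a threshold of 0.05. DESeq2 1.42.0 served as an alternative. Each test was tried on simulated data first. For the chi-square tests these held only counting error and planted changes, so they do not cover other variation between libraries. The edgeR arm test called 3 of 20 hairpins with a planted 2-fold arm difference, 15 of 20 at 16-fold and 20 of 20 at 64-fold. It also called 3 of 91 without a planted difference. The range of a pair's ratio used log2 of counts plus 0.5. Sequences and positions are from RefSeq, and gene models from GENCODE M21.

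The members and lists were chosen with earlier results of these data known. Named miRNAs are the members, those sharing a seed, 2 neighbours on either side by mean CPM, the 5 most alike, the reference and marker lists and the 3 widest and narrowest pairs. The comparisons of G and C content, of minor arms over all hairpins and of the 3p arms with each other were added after the values were seen.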

Additional observations from a re-analysis of the deposited data

How the results depend on the processing

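The counts of called miRNAs, hairpins and pairs stayed within 1.5 times under the other scalings, count minimums, distances and test statistics tried. Leaving out 1 library gave 177 to 284 called miRNAs against 318, 43 to 69 called arm splits against 76, 99 to 122 called arm differences against 126 and 16 to 20 called pairs against 21. The lowest counts of miRNAs, arm splits and pairs came without library 1 and that of arm differences without library 2. The number tested also changed. Without library 1, 61.5% of 288 miRNAs were called against 90.1% with all libraries, 50.6% of 85 arm splits against 93.8% and 64% of 25 pairs against 87.5%. Without library 2, 65.6% of 151 arm differences were called against 80.3%. The arm test made 168 calls of 473 hairpins with no filter on low counts and 129 of 157 with DESeq2. The mean level was 1209.7 RPM for miR-191-5p and 49.8 RPM for miR-425-5p in the authors' deposited RPM, whose denominator is larger than the miRNA total. The log2 ratio of miR-191-5p for library 1 over library 2 reversed, to -0.38 with TMM factors and -0.41 with DESeq2 size factors, since those factors lower library 1 against library 2. That of miR-425-5p for library 2 over library 3 was 0.01 on library totals, with an interval that held equal levels. It was -0.24 with TMM factors, -0.22 with DESeq2 size factors and -0.35 in the authors' RPM, with intervals that excluded them. Test calls for the members kept their side of the threshold under every alternative that used all 3 libraries. Those lost without a library are given with the results. Depth limits the 3p arms most, since miR-191-3p rests on 29 to 101 counts a library. Pairing between groups does not arise with 1 group, and the arms were paired within libraries in the arm test.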
